A study of Mus musculus with 8 samples.

Results

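The 10 listed chemokines of mammary epithelium and stroma were Ccl2, Ccl7, Cxcl12, Ccl21a, Ccl21b, Ccl21c, Ccl20, Cx3cl1, Cxcl14 and Ccl5. They were found by the gene symbol that the platform annotation gives each probe, which returned 15 of the 25697 probes and 10 of the 16593 genes on the array. The genes had been picked with earlier results of these arrays in view, so their levels and differences are given as a description and carry no test. The arrays measured RNA of mammary gland cells from nulliparous mice aged 16 weeks of the B6.129P2-AXLtm1Dgen strain, in which lacZ is inserted into Axl. Axl encodes a receptor tyrosine kinase, and the insertion reports activity of the locus and disrupts the gene. Dissociated cells were stained with FDG, a substrate that becomes fluorescent when the lacZ enzyme cleaves it, and dead cells, doublets and cells positive for CD45, CD31 or CD11b were gated out. The 4 groups, with 2 arrays each, were homozygous FDG-high cells (both Axl alleles carry lacZ, brightest 5%), homozygous FDG-low cells (dimmest 65%), heterozygous FDG-high cells (lacZ on a single Axl allele, brightest 5%) and heterozygous FDG-low cells (dimmest 65%). Every group therefore carried lacZ at Axl, and cells with an intact pair of alleles were not analysed here. Each sample pooled glands of several mice of the same genotype.

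Chemokines are small secreted proteins that steer cells along a gradient by binding G protein-coupled receptors, while atypical receptors take them up without that signal. Heparan sulfate proteoglycans on cell surfaces and in the matrix hold them in place, and proteases trim or shed them. In the mammary gland, fibroblasts are a known source of Ccl2, Ccl7 and Cxcl12, epithelial cells of Ccl20 and Cx3cl1, and lymphatic endothelium and some stromal cells of Ccl21. Macrophages drawn to the ducts take part in ductal growth and remodelling of the gland.

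The arrays were alike in brightness, with median intensities of 115.7 to 126.7 units and 48.1% to 55.5% of probes brighter than background. Arrays of the same group correlated at 0.963 to 0.980 over all genes. The targeted gene, Axl, had normalized log2 intensities of 6.07 and 6.40 in homozygous FDG-high cells and 6.24 and 6.40 in homozygous FDG-low cells. The heterozygous arrays read 8.89 and 9.13 for FDG-high cells and 8.45 and 7.98 for FDG-low cells, so Axl was higher on all heterozygous arrays, in the direction of the genotype labels. Levels below are normalized log2 intensities, differences are log2 differences with the standard error (SE) from limma, and background was at 6.09 to 6.20 on this scale. A level cannot be compared between probes, because each probe has its own brightness.

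Promoter sequences were available for 6 of the 10 genes from RefSeq (build GRCm38.p6), and 4 of them are shown because they contrast a stromal gene (Cxcl12), a lymphatic and stromal gene (Ccl21a) and the epithelial genes (Ccl20 and Cx3cl1). Each is the 150 bases before the annotated start, 5′ to 3′ on the gene's own strand, with motif matches in capitals.
Cxcl12, chr6:117168385-117168534, plus strand: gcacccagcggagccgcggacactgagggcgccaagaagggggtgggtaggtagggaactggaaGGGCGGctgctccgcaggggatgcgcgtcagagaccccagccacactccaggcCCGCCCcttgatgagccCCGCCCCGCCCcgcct
Ccl21a, chr4:42773992-42774141, minus strand: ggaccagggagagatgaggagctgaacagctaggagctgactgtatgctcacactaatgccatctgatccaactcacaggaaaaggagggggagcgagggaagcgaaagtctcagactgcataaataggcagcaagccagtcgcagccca
Ccl20, chr1:83116616-83116765, plus strand: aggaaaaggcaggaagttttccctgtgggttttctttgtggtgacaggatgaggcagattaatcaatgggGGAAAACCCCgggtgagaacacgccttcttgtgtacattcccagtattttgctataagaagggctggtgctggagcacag
Cx3cl1, chr8:94772030-94772179, plus strand: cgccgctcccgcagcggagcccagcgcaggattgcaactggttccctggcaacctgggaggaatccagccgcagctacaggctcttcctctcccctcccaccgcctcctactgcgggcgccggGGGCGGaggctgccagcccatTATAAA

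The motifs searched on both strands were the GC box (GGGCGG), the TATA box written as TATAAA, and the NF-kappaB consensus. The AP-1 site (TGANTCA) and the interferon-stimulated response element, with the letters GAAANNGAAA, were searched too. The Cxcl12 window held 4 GC boxes, 2 of which share a base at -11 counted from the start. The Cx3cl1 window held a GC box at -27 to -22 and TATAAA at -6 to -1. The Ccl20 window held the NF-kappaB consensus at -80 to -71. None of these letters occurred in the Ccl21a window. Among 32851 mouse promoter windows of the same length, 28.6% held the GC box, 7.57% TATAAA and 2.38% the NF-kappaB consensus, and 4.24% and 1.59% held the AP-1 and interferon elements, which were in none of the 4 windows shown. These matches describe letters, not bound sites. In RefSeq's order of coding genes Ccl2, Ccl7 and the eosinophil chemokine gene Ccl11 follow each other on chromosome 11, and Ccl21a lies next to Ccl19, whose product shares its receptor Ccr7, on chromosome 4.

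Ccl2, a monocyte attractant that acts through Ccr2, was highest in homozygous FDG-low cells and lowest in heterozygous FDG-low cells. It read 10.20 and 11.39 in homozygous FDG-high cells, 11.63 and 11.70 in homozygous FDG-low cells, 10.76 and 10.74 in heterozygous FDG-high cells, and 9.11 and 10.10 in heterozygous FDG-low cells. Homozygous FDG-low cells lay above every other array, heterozygous FDG-low cells lay below every other array, and the 2 FDG-high groups overlapped. The homozygous minus heterozygous difference in the FDG-low gate was 2.06 ± 0.44, or 4.17-fold, and in the FDG-high gate it was 0.04 ± 0.44. The gate differences ran in opposite directions, with FDG-high minus FDG-low at -0.87 ± 0.44 in homozygous glands and 1.14 ± 0.44 in heterozygous glands.

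Ccl7, which binds Ccr2 among other receptors, had its lowest levels in heterozygous FDG-low cells, as Ccl2 did. Its levels were 10.70 and 12.27 in homozygous FDG-high cells, 12.20 and 12.27 in homozygous FDG-low cells, 11.45 and 11.88 in heterozygous FDG-high cells, and 9.48 and 10.33 in heterozygous FDG-low cells. Heterozygous FDG-low cells again lay below all other arrays, while the 2 homozygous FDG-high arrays spanned the range between them and the homozygous FDG-low cells. Between genotypes the FDG-low difference was 2.33 ± 0.52 (5.03-fold) and the FDG-high difference -0.18 ± 0.52. The gate difference was -0.75 ± 0.52 in homozygous glands, where the 2 gates overlapped and the value was 0.04 without the first FDG-high array, and 1.76 ± 0.52 (3.39-fold) in heterozygous glands, where they did not.

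Cxcl12, the ligand of Cxcr4 and of the atypical receptor Ackr3, was represented by the brightest of 5 probes. That probe read 8.04 and 8.95 in homozygous FDG-high cells, 9.56 and 9.10 in homozygous FDG-low cells, 8.49 and 8.78 in heterozygous FDG-high cells, and 6.87 and 7.78 in heterozygous FDG-low cells. As for Ccl2, homozygous FDG-low cells lay above and heterozygous FDG-low cells below all other arrays, and the 2 FDG-high groups overlapped. In FDG-low cells the genotype difference was 2.01 ± 0.40 (4.02-fold), against -0.15 ± 0.40 in FDG-high cells. FDG-high minus FDG-low was -0.84 ± 0.40 in homozygous glands and 1.31 ± 0.40 in heterozygous glands. Over the 8 arrays Ccl2 correlated with Ccl7 at r = 0.97 and with Cxcl12 at r = 0.97, values that describe 8 arrays of 4 groups and share the group means.

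**Figure D1:**
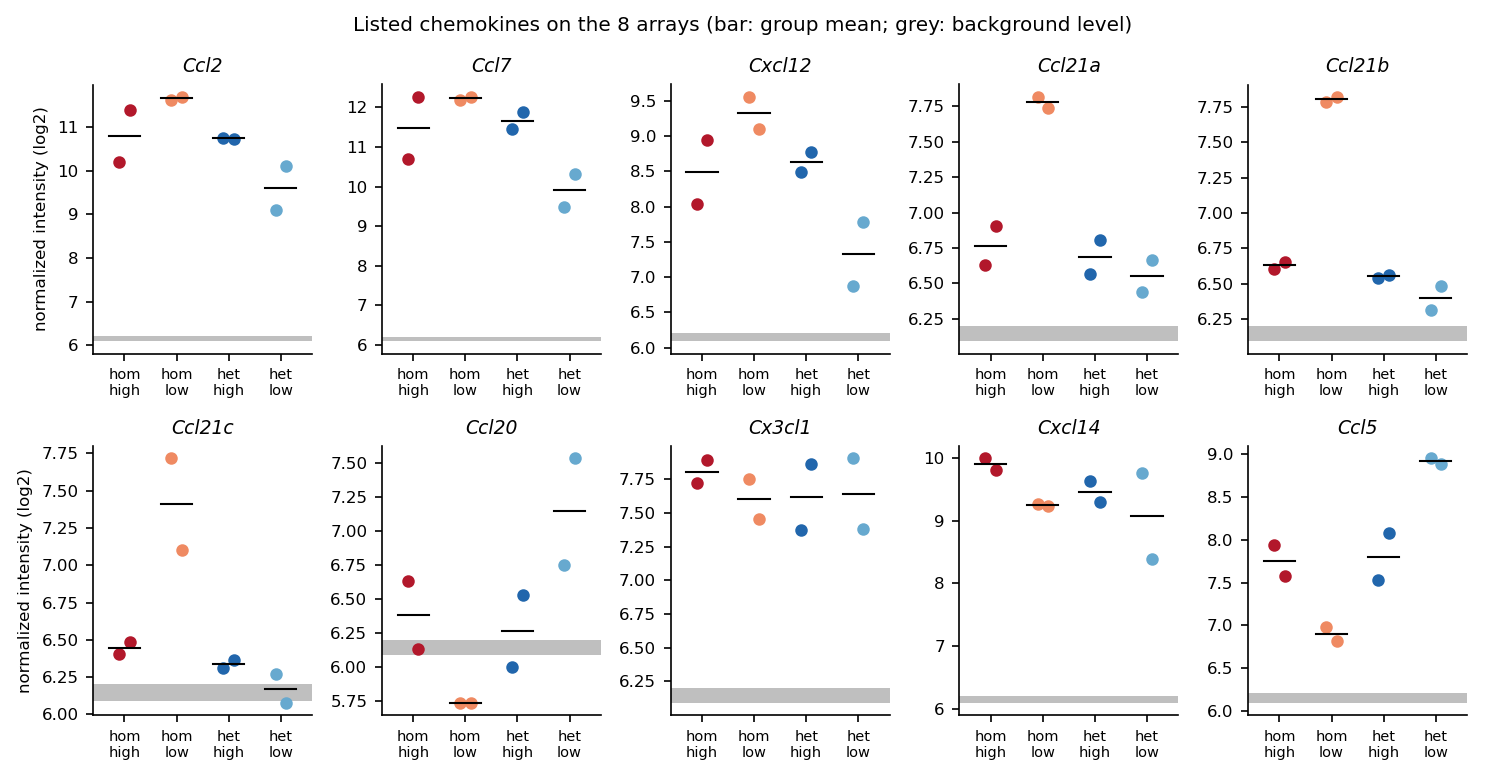
Normalized log2 intensity of the 10 chemokines (brightest probe of each) on the 8 arrays, with a panel per gene and its own axis range; points are arrays, bars group means and the grey band the background level of the arrays. Homozygous FDG-low cells were highest for Ccl2, Cxcl12 and the Ccl21 genes and lowest for Ccl5 and Ccl20, while the 2 FDG-high groups lay close together.

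The 5 Cxcl12 probes are annotated to several transcripts, and 4 of them were above background on all arrays, each with a higher level in homozygous than in heterozygous FDG-low cells. The second probe for transcript NM_021704 differed by 1.55 ± 0.22 between homozygous and heterozygous FDG-low cells. A probe for NM_001012477 differed by 1.92 ± 0.36, and the probe for NM_013655 by 1.03 ± 0.22. Their gate differences in heterozygous glands were 1.00, 1.09 and 0.59. In homozygous glands the NM_013655 probe differed least between the gates, at -0.11, against -0.68 for the second NM_021704 probe and -1.13 for the NM_001012477 probe. The remaining NM_001012477 probe stayed near background, above it on 1 of 8 arrays, with a difference of 0.26 in the FDG-low gate. In the FDG-high gate the probes did not share a sign between genotypes, since NM_013655 was at 0.34 and the others were between -0.29 and -0.04.

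**Figure D2:**
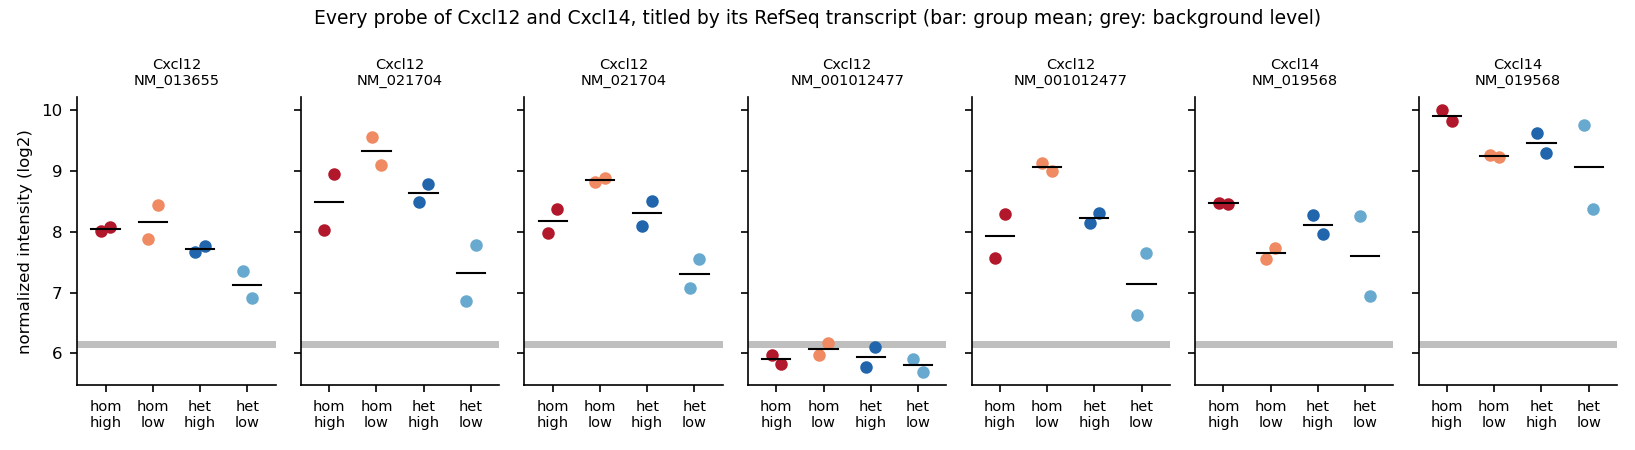
Normalized log2 intensity of the 5 Cxcl12 and 2 Cxcl14 probes on the 8 arrays, each panel titled by the RefSeq transcript that the platform annotation names, with group means as bars and background in grey. In 4 Cxcl12 panels the mean of heterozygous FDG-low cells was lowest and that of homozygous FDG-low cells highest, 1 Cxcl12 probe stayed near background, and both Cxcl14 probes had their highest mean in homozygous FDG-high cells.

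Ccl21a, Ccl21b and Ccl21c encode near-identical ligands of Ccr7, which guides dendritic cells and T cells into lymphatics and lymph nodes. Their probes may each pick up RNA of the other copies, so the 3 are not independent measurements. Ccl21a read 6.63 and 6.90 in homozygous FDG-high cells, 7.82 and 7.74 in homozygous FDG-low cells, 6.57 and 6.81 in heterozygous FDG-high cells, and 6.44 and 6.67 in heterozygous FDG-low cells. Only homozygous FDG-low cells stood out, and the other 3 groups overlapped. Ccl21b had 6.61 and 6.65 in homozygous FDG-high cells, 7.79 and 7.82 in homozygous FDG-low cells, 6.54 and 6.56 in heterozygous FDG-high cells, and 6.31 and 6.48 in heterozygous FDG-low cells. Ccl21c was 6.40 and 6.48 in homozygous FDG-high cells, 7.72 and 7.10 in homozygous FDG-low cells, 6.31 and 6.36 in heterozygous FDG-high cells, and 6.27 and 6.08 in heterozygous FDG-low cells, the last of these below background. The FDG-low genotype difference was 1.23 ± 0.14 for Ccl21a, 1.41 ± 0.09 for Ccl21b and 1.24 ± 0.20 for Ccl21c. Unlike Ccl2, Ccl7 and Cxcl12, the Ccl21 genes differed little between the gates of heterozygous glands, by 0.13 ± 0.14, 0.15 ± 0.09 and 0.16 ± 0.20 for Ccl21a, Ccl21b and Ccl21c. They were close to background in both of these gates, where differences are understated, so a decrease like that of the brighter genes could be missed. In homozygous glands FDG-high minus FDG-low was -1.01 ± 0.14 for Ccl21a, -1.18 ± 0.09 for Ccl21b and -0.96 ± 0.20 for Ccl21c.

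Lymphatic endothelial markers were measured beside the Ccl21 genes. The summed linear level of the 4 lymphatic markers measured was 1328 to 2471 units in homozygous FDG-high cells, 2720 to 2854 in homozygous FDG-low cells, 1636 to 1970 in heterozygous FDG-high cells and 859 to 1381 in heterozygous FDG-low cells. Most of that sum was podoplanin, Pdpn, which fibroblasts and basal cells also make and which did not pass the test between the FDG-low groups (1.54 ± 0.39, limma, adjusted p = 0.063). The markers closer to that cell type were dimmer, and each was above background on 6 or 7 of the 8 arrays. Lyve1, a hyaluronan receptor, ranged between 6.02 and 6.84 over the 8 arrays, and Prox1, a lymphatic transcription factor, between 5.90 and 7.50. Both were highest on the homozygous FDG-low arrays, at 6.66 and 6.84 for Lyve1 and 7.50 and 6.73 for Prox1. Flt4, the receptor for lymphatic growth factors, lay between 5.90 and 6.31. Prox1 differed by 0.68 ± 0.29 between the FDG-low groups (adjusted p = 0.24). All 4 lymphatic markers had a positive difference there, and 0 passed the adjusted threshold. For 3 of the 4 the arrays did not overlap, against 24.8% of all genes higher without overlap. Lymphatic and vascular endothelium both carry CD31, so the sort should remove either. Of the 4 vascular endothelial markers, Cdh5 and Kdr were below background on every array. The others, Pecam1, the gene of CD31, and Tek, were above it on all 8 arrays, at 6.28 to 7.33 and 6.34 to 7.38. The sum of the 4 was 309 to 456 units in homozygous FDG-high, 376 to 397 in homozygous FDG-low, 304 to 358 in heterozygous FDG-high and 284 to 306 in heterozygous FDG-low cells. The part of these cell types in the Ccl21 levels was not tested.

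Among the epithelial chemokines, Ccl20, which attracts Ccr6-bearing lymphocytes and dendritic cells and whose promoter window is shown above with its NF-kappaB consensus, ran opposite to the stromal genes. It read 6.64 and 6.14 in homozygous FDG-high cells, 5.74 and 5.74 in homozygous FDG-low cells, 6.00 and 6.53 in heterozygous FDG-high cells, and 6.75 and 7.54 in heterozygous FDG-low cells. Both homozygous FDG-low arrays and the first heterozygous FDG-high array were below background, so homozygous FDG-low cells have only an upper limit. Ccl20 was at least 1.93-fold lower in homozygous than in heterozygous FDG-low cells, a bound that compares the brighter group with the lowest level that counts as above background. It was at least 1.14-fold higher in homozygous FDG-high than in homozygous FDG-low cells. In heterozygous glands FDG-high minus FDG-low was -0.88 ± 0.31, and between genotypes the FDG-high cells differed by 0.12 ± 0.31.

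Cx3cl1, or fractalkine, is made as a membrane protein and shed by the proteases Adam10 and Adam17. Its levels were 7.72 and 7.89 in homozygous FDG-high cells, 7.75 and 7.45 in homozygous FDG-low cells, 7.38 and 7.86 in heterozygous FDG-high cells, and 7.91 and 7.38 in heterozygous FDG-low cells. All 4 groups overlapped, although the gene was above background on all 8 arrays. The 4 differences lay between -0.04 and 0.21, each with an SE of 0.23, so the 2 epithelial chemokines did not share a pattern in these arrays. Cx3cl1 overlapped between the FDG-low groups, whereas their summed epithelial markers, given below, did not.

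Cxcl14, a chemokine of epithelia and fibroblasts, was highest in homozygous FDG-high cells. The brighter of its 2 probes read 10.0002 and 9.82 in homozygous FDG-high cells, 9.26 and 9.24 in homozygous FDG-low cells, 9.64 and 9.29 in heterozygous FDG-high cells, and 9.76 and 8.39 in heterozygous FDG-low cells. The heterozygous FDG-low arrays were farther apart than any of the differences between groups, and 1 of them was within the range of the FDG-high cells. FDG-high minus FDG-low was 0.66 ± 0.41 in homozygous glands and 0.39 ± 0.41 in heterozygous glands, and homozygous minus heterozygous was 0.45 ± 0.41 in FDG-high cells and 0.18 ± 0.41 in FDG-low cells. The other probe gave 0.83 and 0.52 for the gate difference in homozygous and heterozygous glands. For the genotype difference it gave 0.36 in FDG-high and 0.04 in FDG-low cells, so both probes had the same signs.

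Ccl5 is known from T cells and other leukocytes, which the CD45 gate is meant to remove, and it was above background on all 8 arrays. It read 7.94 and 7.58 in homozygous FDG-high cells, 6.98 and 6.82 in homozygous FDG-low cells, 7.53 and 8.08 in heterozygous FDG-high cells, and 8.96 and 8.88 in heterozygous FDG-low cells. The order was the reverse of that of Ccl2, with heterozygous FDG-low cells above and homozygous FDG-low cells below all other arrays. The genotype difference was -2.02 ± 0.21 in FDG-low cells, a 4.06-fold lower level, and -0.05 ± 0.21 in FDG-high cells. FDG-high minus FDG-low was 0.86 ± 0.21 in homozygous glands and -1.12 ± 0.21 in heterozygous glands. Of the 7 T cell and cytotoxic markers, Cd3e, Cd3g, Cd3d, Nkg7, Gzma and Gzmb were below background on every array. Cd2 was above it on all 8 arrays, between 6.19 and 6.44. The summed linear level of these 7 markers was 422 to 429 units in homozygous FDG-high, 437 to 447 in homozygous FDG-low, 430 to 437 in heterozygous FDG-high and 435 to 441 in heterozygous FDG-low cells. Among the 5 leukocyte markers measured, Ptprc, Itgam, Lyz2 and Adgre1 were below background on every array. The fifth, Cd14, read 6.55 and 6.45 in homozygous FDG-high cells and 6.07 and 6.15 in homozygous FDG-low cells, the latter below background. Its heterozygous arrays read 6.15 and 6.93 for FDG-high cells and 6.96 and 7.91 for FDG-low cells. Cd14 was thus highest in heterozygous FDG-low cells, as Ccl5 was, without passing the adjusted threshold between the FDG-low groups. The part of leukocytes in the Ccl5 levels was not tested.

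The stromal and epithelial chemokines were set against each other within each array as the mean deviation of Ccl2, Ccl7 and Cxcl12 from their means over 8 arrays, minus that of Ccl20 and Cx3cl1. In homozygous FDG-high cells this contrast was -0.67 and 0.72, so its arrays lay on opposite sides of 0. It was 1.25 and 1.30 in homozygous FDG-low cells, 0.41 and 0.14 in heterozygous FDG-high cells, and -1.97 and -1.19 in heterozygous FDG-low cells. The FDG-low groups were therefore the extremes, in opposite directions, and the FDG-high groups lay between them and overlapped. Ccl20 was below background on both homozygous FDG-low arrays and on 1 heterozygous FDG-high array, so the contrast rests there on a level that is only an upper limit for Ccl20, and the closeness of the 2 homozygous FDG-low values is not a measure of precision. Ccl20 carried the epithelial side of the contrast, since Cx3cl1 differed little between groups.

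**Figure D3:**
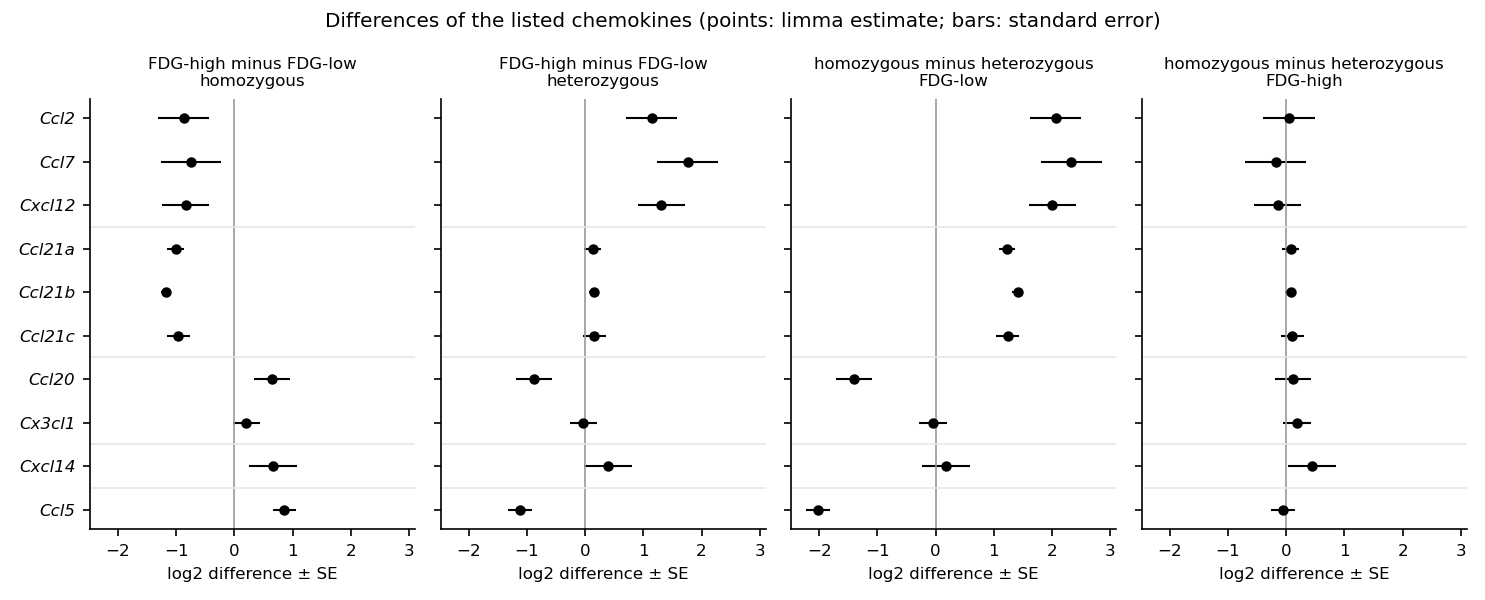
Log2 differences of the 10 chemokines in the 4 comparisons, with points for the limma estimate and bars for its standard error. Ccl2, Ccl7, Cxcl12 and the Ccl21 genes lay to the right and Ccl20 and Ccl5 to the left in the comparison of FDG-low cells. The gate differences of all genes but Cxcl14 had opposite signs in the genotypes. Those of the Ccl21 genes (0.13 to 0.16) and Cx3cl1 (-0.03) were small in heterozygous glands, and the Ccl7 gates overlapped in homozygous glands. All 10 genes were between -0.18 and 0.45 in the comparison of FDG-high cells.

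The share of all genes that met the same criteria is the background for these counts, and nothing about the 10 chemokines is read from them because they were picked on these arrays. In FDG-low cells, 8.41% of the 16593 genes passed an adjusted p of 0.05 (3.78% higher and 4.63% lower in homozygous cells). Ccl2, Ccl7, Ccl21a, Ccl21b, Ccl21c and Cxcl12 were among the higher and Ccl5 and Ccl20 among the lower, 8 of 10 in all. Without the first homozygous FDG-low array 1 of the 10 remained past that threshold, without the second 2, and without either heterozygous FDG-low array 4. Without either heterozygous FDG-high array 6 remained, and Ccl2 and Ccl7 did not. The arrays of the 2 FDG-low groups did not overlap for the same 6 and 2 chemokines, against 24.8% of all genes higher, 25.6% lower and 50.4% in all. Between the gates of homozygous glands 1 chemokine passed, Ccl21b, lower in FDG-high cells, against 0.392% of all genes (0.133% lower), and the arrays did not overlap for 8 chemokines against 44.6% of genes. Leaving out either homozygous FDG-low array, or the first of the homozygous FDG-high arrays, removed that call. Between the gates of heterozygous glands 0 of 10 passed against 0.00603% of all genes, or 1 gene (1701 genes at an unadjusted p under 0.05 in limma), and 7 did not overlap against 39.0%. In FDG-high cells 0 of 10 passed between genotypes, as did 0% of all genes in limma (639 genes at an unadjusted p under 0.05), and 3 did not overlap against 30.0%. For the interaction of gate and genotype, 0.814% of all genes passed (0.579% higher, 0.235% lower), with Ccl5 among the higher and Ccl21b among the lower, and both calls were lost when any FDG-low array was left out. Median log2 differences over the 10 chemokines were -0.79 and 0.16 for the gates of homozygous and heterozygous glands and 0.08 and 1.23 for the genotypes of FDG-high and FDG-low cells, while the median over all genes was within 0.01 of 0 in each.

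In the FDG-low gate, fibroblast markers were higher in homozygous cells, as were Ccl2, Ccl7 and Cxcl12, and epithelial markers were lower, as were Ccl20 and Ccl5 but not Cx3cl1 or Cxcl14. Over all genes 3.78% were called higher and 4.63% lower in that gate. Of the 8 fibroblast markers 3 rose in homozygous against heterozygous FDG-low cells, and all 8 had a positive difference (median 1.77): the collagen-binding proteoglycans Lum (2.35 ± 0.43, limma, adjusted p = 0.026) and Dcn (1.57 ± 0.31, adjusted p = 0.032), and the surface protein Thy1 (2.39 ± 0.30, adjusted p = 0.0099). Their summed linear level was 9889 to 12520 units in homozygous FDG-high, 13262 to 13425 in homozygous FDG-low, 8655 to 14368 in heterozygous FDG-high and 2349 to 5870 in heterozygous FDG-low cells. Of the 8 epithelial markers measured 7 fell (median -2.32), among them the keratin Krt7 (-3.67 ± 0.29, adjusted p = 0.0037) and the tight junction gene Cldn3 (-2.92 ± 0.33, adjusted p = 0.0077). Their sum was 4637 to 7033 units in homozygous FDG-high, 2598 to 2636 in homozygous FDG-low, 5301 to 5624 in heterozygous FDG-high and 9365 to 10298 in heterozygous FDG-low cells. Of the 5 basal markers 1 fell, the smooth muscle actin Acta2 (-1.62 ± 0.15, adjusted p = 0.0054), with a median of -1.20, and of the 4 pericyte markers the receptor Pdgfrb rose, at least 1.39-fold, since it was below background in heterozygous FDG-low cells (adjusted p = 0.047). The part of cell makeup in the chemokine differences was not tested, and in these sorted bulk samples fewer cells of a type and less RNA per cell cannot be told apart.

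The 2 arrays of a group could differ as well. The heterozygous FDG-low array with the lower fibroblast deviation (-2.03 against -0.54 for its partner) had the lower stromal chemokines, at -1.67 against -0.75. In homozygous FDG-high cells the stromal chemokines were -0.51 and 0.71 while the fibroblast markers were 0.14 and 0.54. The Ccl21 genes had a mean deviation of -0.25 and -0.12 in homozygous FDG-high cells, 0.98 and 0.76 in homozygous FDG-low cells, -0.32 and -0.22 in heterozygous FDG-high cells and -0.45 and -0.38 in heterozygous FDG-low cells, so they were nearly level across 3 groups in which the fibroblast markers were not. In those 3 groups the Ccl21 probes read 6.08 to 6.90, close to background, where differences are understated and a decrease could be missed. Immediate-early genes, which tissue dissociation is known to induce, had mean deviations of 0.05 and 0.01 in homozygous FDG-high cells, 0.27 and 0.28 in homozygous FDG-low cells, -0.45 and 0.18 in heterozygous FDG-high cells, and -0.55 and 0.21 in heterozygous FDG-low cells. Between the FDG-low groups 14 of the 19 had a positive difference, against 8345 of all 16593 genes, with a median of 0.55 against 0.00118 over all genes. At the adjusted threshold 0 rose and 1 fell, Klf6 (-0.55 ± 0.11, adjusted p = 0.039), against 3.78% of all genes higher and 4.63% lower. An unadjusted limma p under 0.05 was reached by 9 of 19, against 3722 of all 16593 genes. Of the 13 genes measured from a list of NF-kappaB targets and regulators, 1 rose there, the cytokine gene Il6 (1.84 ± 0.33, adjusted p = 0.026), against the same 3.78% of all genes.

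**Figure D4:**
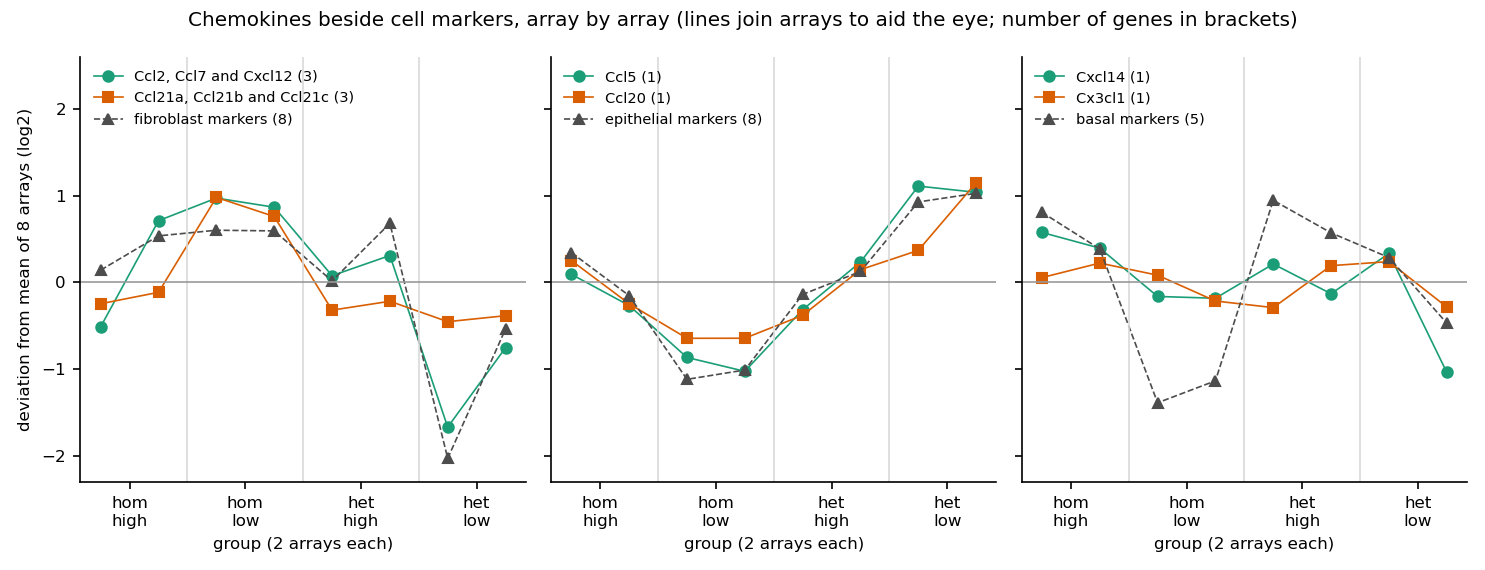
Mean deviation from the mean over 8 arrays (log2) of chemokines and of fibroblast, epithelial and basal markers on each array, with the number of genes in brackets. Ccl2, Ccl7 and Cxcl12 ran near the fibroblast markers and Ccl5 and Ccl20 near the epithelial markers. The Ccl21 genes were highest in homozygous FDG-low cells and nearly level elsewhere, where they were close to background. The basal markers were lowest in homozygous FDG-low cells, while Cx3cl1 and Cxcl14 stayed within the range of the other groups.

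The genes whose levels were most like each chemokine were sought by Pearson's r over the 8 arrays among 9588 genes above background, as a description of arrays that share group means. Ccl2 was most like Ugcg, a glycosphingolipid enzyme (r = 0.990), and Ddr2, a collagen receptor (r = 0.990). Ccl7 was most like the integrin-like gene Itgbl1 (r = 0.990), followed by the adhesion molecule Icam1 (r = 0.985) and the cytokine Il6 (r = 0.984). Cxcl12 was most like the cytoskeletal linker Epb41l2 (r = 0.988) and the actin-severing gene Gsn (r = 0.981). Ccl5 was most like Cldn3 (r = 0.995), a claudin of epithelial tight junctions, and Ccl20 most like Rab27b (r = 0.994), a secretion GTPase, and the milk fat globule gene Btn1a1 (r = 0.992). Ccl21a was most like Otulinl (r = 0.990), Ccl21b like the odorant receptor gene Olfr456 (r = 0.996) and Ccl21c like Myd88, an adaptor of Toll-like receptors (r = 0.986). Another odorant receptor gene, Olfr457, came second for Ccl21c (r = 0.984). Odorant receptor probes were among those that set the background level, so the Ccl21 pattern was shared by probes of a kind taken as background. Cxcl14 and Cx3cl1 had weaker partners, with Elovl4, a fatty acid elongase, at r = 0.963 and Alox12, a lipoxygenase, at r = 0.922.

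The rest of the chemokine system was read from lists of 30 other chemokines, 24 receptors and 11 genes of proteolysis and heparan sulfate. All 30 chemokines, 23 receptors and 10 of the 11 were on the array, and 17, 8 and 10 of them were above background on both arrays of at least 1 group. Of the receptors for the listed chemokines, Ccr2 and Ccr7 were below background on every array, as were Ccr1, Ccr3, Ccr4 and Cxcr3. No receptor passed an adjusted p of 0.05 in limma in any of the 5 comparisons, and between the FDG-low groups 3 of 23 had an unadjusted p under 0.05, against 3722 of all 16593 genes. Cxcr4, the receptor of Cxcl12, read 8.34 and 7.36 in homozygous FDG-high cells, 6.91 and 7.09 in homozygous FDG-low cells, 7.09 and 7.74 in heterozygous FDG-high cells, and 8.24 and 8.88 in heterozygous FDG-low cells. It was thus lowest where Cxcl12 was highest among the groups, but its differences did not pass in any comparison (FDG-low genotype difference -1.56 ± 0.39, limma, adjusted p = 0.062). The atypical receptors Ackr1 (-0.02 ± 0.52, adjusted p = 0.99) and Ackr4 (-0.45 ± 0.23, adjusted p = 0.34) did not pass between the FDG-low groups either. Ackr2, which takes up inflammatory CC chemokines, was higher on both homozygous FDG-low arrays without passing (0.74 ± 0.23, adjusted p = 0.12). Ackr3, introduced above for Cxcl12, was below background in heterozygous FDG-low cells and at least 1.49-fold higher in homozygous FDG-low cells, also without passing (adjusted p = 0.21). Ccrl2, which binds chemerin, was at 0.49 ± 0.26 there (adjusted p = 0.35). Cxcr6, the receptor of Cxcl16, was below background in homozygous FDG-low cells, at 5.83 and 5.92. In heterozygous FDG-low cells it read 6.67 and 6.05, above background on only the first array, and it did not pass (limma, adjusted p = 0.40). Ackr4, which takes up Ccl19, Ccl21 and Ccl25, read 6.69 and 6.65 in homozygous FDG-high cells, against 7.85 and 7.56 in heterozygous FDG-high cells. That difference of -1.03 ± 0.23 did not pass in limma (adjusted p = 1). It passed in the rank product, the method that the design text names for this comparison (2.04-fold lower, permutation p = 6e-07, unadjusted). The array pairs of the rank product share arrays but were permuted as if independent, so this p-value does not measure the spread between replicates. The rank product called 1.22% of all genes, 0 of the 10 listed chemokines and 1 gene of the 3 lists. A second Ackr4 probe was lower too (-0.86), and the remaining one was below background.

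Changes in the other chemokines and in the processing genes that passed the test were all between the FDG-low groups, where the background share was 8.41%. Among 30 chemokines 1 rose and 2 fell, with a median of 0.09. Cxcl10, an interferon-induced ligand of Cxcr3, rose, at 10.32 and 10.38 in homozygous FDG-low cells against 8.34 and 8.69 in heterozygous FDG-low cells (1.84 ± 0.25, limma, adjusted p = 0.012). Cxcl16, a membrane-bound chemokine, fell to 9.07 and 9.31 in homozygous FDG-low cells, against 10.20 and 10.41 in heterozygous FDG-low cells (-1.11 ± 0.12, adjusted p = 0.0077). Cxcl15, known as a neutrophil chemokine of mouse lung, fell below background, at 5.98 and 5.96 in homozygous FDG-low cells against 8.50 and 7.71 in heterozygous FDG-low cells, at least 3.75-fold lower (adjusted p = 0.013). Cxcl10 thus differed in the direction of Ccl2, and Cxcl15 and Cxcl16 in the direction of Ccl20. Ccl19 (1.60 ± 0.38, adjusted p = 0.056), the other ligand of Ccr7, did not pass. Nor did Ccl11 (1.76 ± 0.45, adjusted p = 0.066), next to Ccl7 on the chromosome, whose second probe was at 2.49 ± 0.32, or Cxcl9 (0.87 ± 0.33, adjusted p = 0.17).

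Of the 10 processing and presentation genes 2 rose and 1 fell between the FDG-low groups, against 3.78% and 4.63% of all genes, with a median of 0.23. Hspg2, which encodes the basement membrane proteoglycan perlecan, rose, at 11.00 and 11.13 in homozygous FDG-low cells against 9.54 and 9.24 in heterozygous FDG-low cells (1.67 ± 0.19, limma, adjusted p = 0.0085). Ext1, an enzyme that builds heparan sulfate chains, rose by 1.36 ± 0.27 (adjusted p = 0.032). Sdc4, a syndecan that carries such chains at the cell surface, fell, at 9.01 and 9.33 in homozygous FDG-low cells against 10.56 and 10.36 in heterozygous FDG-low cells (-1.29 ± 0.19, adjusted p = 0.014). Sdc2 was at 1.42 ± 0.35 (adjusted p = 0.059), Sdc3 at -1.81 ± 0.46 (adjusted p = 0.067) and the protease Dpp4, which trims Cxcl12, at 0.99 ± 0.48 (adjusted p = 0.30), none of which passed. These genes too were read in groups whose fibroblast and epithelial markers differed, and their part was not tested. Without the first homozygous FDG-low array 0 of the genes in the 3 lists passed, without the second 1 (Cxcl16), and without the first heterozygous FDG-low array 3, while 10 passed without either homozygous FDG-high array.

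**Figure D5:**
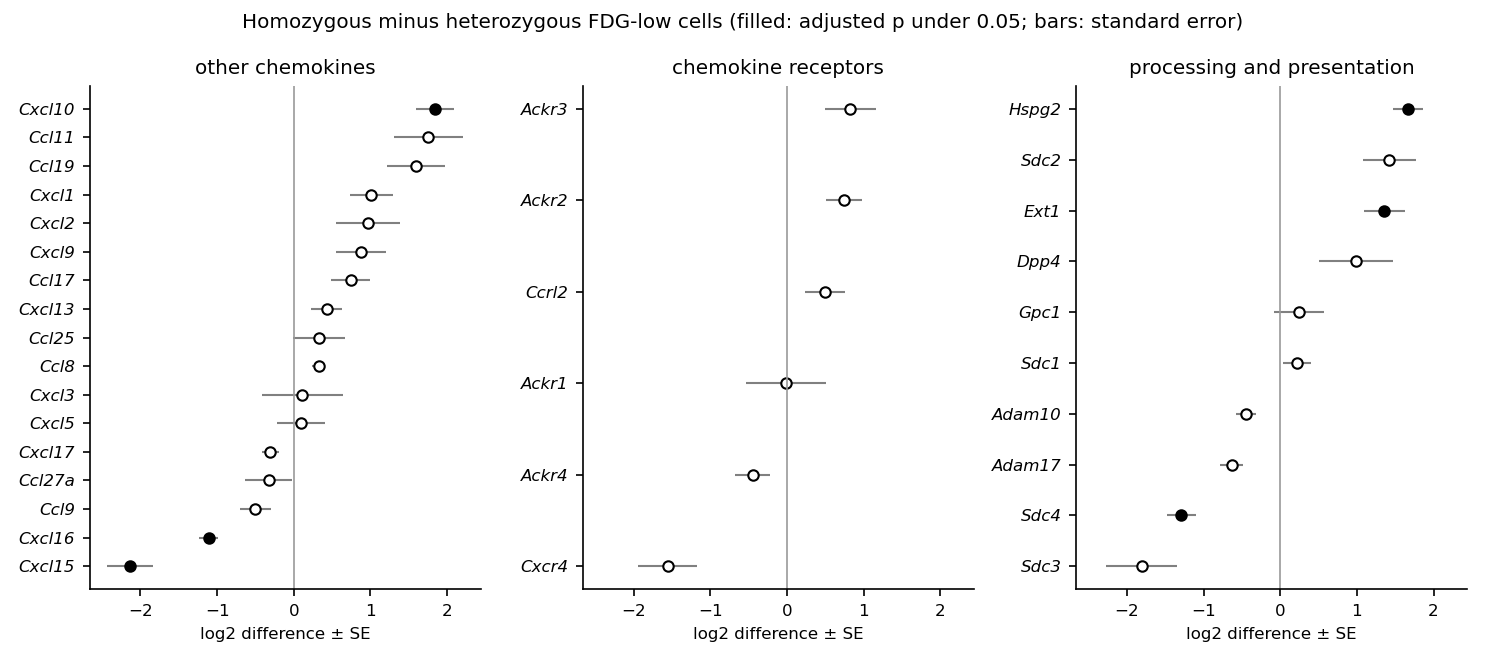
Homozygous minus heterozygous log2 difference in FDG-low cells for the 17 other chemokines, 6 receptors and 10 processing genes above background on both arrays of either group, with standard errors; filled points passed an adjusted p of 0.05. Cxcl10, Hspg2 and Ext1 were higher and Cxcl16, Cxcl15 and Sdc4 lower, and no receptor passed.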

How the data were processed

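Illumina mouse bead arrays measured RNA of FDG-sorted mammary cells (8 arrays, 4 groups of 2, grouped by sample title). The values are linear probe intensities as deposited. The design text states that log2 quantile normalized values were used, but the deposited intensities were neither log transformed nor on a common distribution, and how the scanner values were summarised is not stated there. The normexp correction of limma 3.58.1 (R 4.3.3, offset 50) was applied, and the result was quantile normalized and log2 transformed, so differences of dim genes are understated.

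Platform annotation gave 1 symbol to 23978 probes, several to 0 and none to 1719. The annotation's gene identifiers matched GRCm38.p6 for 23962, which changed 0 symbols. The brightest probe stood for each of 16593 genes, 4777 with more than 1. Background was the 95th percentile of 1324 odorant, vomeronasal and trace amine receptor probes. A gene counts as above background where at least 1 of its probes is, and bounds ("at least") compare the bright group with the higher of the dim probe's value and the lowest level above background.

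The limma fit had 1 coefficient for each group (4 residual and 2.4 prior degrees of freedom) and gave FDG-high minus FDG-low in each genotype, homozygous minus heterozygous in each gate, and their interaction. Tests were moderated and two-sided, with p-values adjusted over all genes by Benjamini-Hochberg (threshold 0.05). The model was tested on simulated data. The rank product used 100 permutations, an unadjusted p under 0.01 and at least 1.5-fold, on pairs of arrays that share arrays. The labels do not say whether replicates were separate pools, so the p-values cover only the spread seen here, which may be technical. Precision is limited by the number of arrays.

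The listed chemokines and all gene lists were chosen with earlier results of these data known. All listed chemokines are named with every probe. Of the other lists, genes past the threshold in any comparison are named, or else the 3 above background with the largest gate difference per genotype, along with the 3 genes most correlated with each chemokine, of which those with the highest r are printed. Marker genes were named beside the results they touch. The alternatives are named in the closing section.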

Additional observations from a re-analysis of the deposited data

Results flagged for a closer look

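Ccl5 and Ccl21b were the listed chemokines past the adjusted threshold for the interaction term of the limma model. That term compares the gate differences of homozygous and heterozygous glands. Ccl5 had FDG-high minus FDG-low at 0.86 in homozygous glands and -1.12 in heterozygous glands, a difference of 1.975 with an SE of 0.291. Ccl21b had -1.18 in homozygous glands and 0.15 in heterozygous glands, a difference of -1.329 with an SE of 0.131. Both genes were among those picked on these arrays, so the values are a description. Ccl7 (-2.51 ± 0.74), Cxcl12 (-2.15 ± 0.56) and Ccl2 (-2.02 ± 0.62) had interaction values farther from 0 that were not past the threshold. The Ccl5 call remained with the second homozygous FDG-high array left out and was lost with each of the other 7 left out. The Ccl21b call remained with that array or the first heterozygous FDG-high array left out, and was lost with each of the other 6. The epithelial markers and the fibroblast markers had median interaction values of 2.47 and -1.85.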

How the results depend on the processing

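Among the gene differences recomputed under the alternatives, each one that was called kept its sign in all that gave it a value; among values that were not called, some signs turned, such as that of Ccl7 between the homozygous gates (0.04 without the first homozygous FDG-high array). Among the 10 listed chemokines the FDG-low genotype count (8) became 5 with no background correction (pseudocount 16) and 7 with the replicate block, and ranged between 1 and 8 with an array left out. The homozygous gate count (1) became 2 with an offset of 16 or among genes above background and 0 with only the 4 arrays compared, and ranged between 0 and 1 with an array left out. The interaction count (2) became 1 with no background correction and 1 with the replicate block, and ranged between 0 and 3 with an array left out. Among the other chemokines, receptors and processing genes the FDG-low count (6) became 11 with an offset of 16, 12 among genes above background, 12 with a variance trend, 10 with the replicate block and 12 with only the 4 arrays compared, and ranged between 0 and 10 with an array left out. Their interaction count (0) became 1 with median centring, 2 with an offset of 16, 4 among genes above background and 4 with a variance trend, and ranged between 0 and 2 with an array left out. Their homozygous gate count (0) became 1 with an offset of 16, and their FDG-high genotype count (0) became 1 with the rank product. Genes called in all ranged between 122 and 1689 for the FDG-low genotypes (1396) and between 0 and 193 for the homozygous gates (65). Interaction calls over all genes ranged between 0 and 328 (135), and heterozygous gate calls between 0 and 6 (1). Where an array was left out, the lone array of its group was assumed to vary like the other groups. In FDG-low cells Ccl21b passed in 16 of 16 alternatives, Ccl5 and Ccl21a in 14, Ccl21c and Cxcl12 in 13, Ccl20 in 11 and Ccl2 and Ccl7 in 9. The cause of these changes was not tested. Replicate numbers were not taken to pair samples. Deviations of same-numbered arrays correlated between -0.05 and 0.07 across genotypes, at 0.01 between the homozygous gates and at 0.40 between the heterozygous gates. A pairing of the heterozygous gates therefore remains possible, and the replicate block gave both genotypes the same shift. Of the chemokine calls with that block, the FDG-low call of Ccl20 was lost (limma, adjusted p = 0.053), as was the interaction of Ccl5. With 2 arrays a group, genes near background, such as Ccl20 and Ccl21c, have the least certain differences.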
